A study of Homo sapiens with 60 samples.

Results

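HT29 cells treated for 24 h with an ethanol extract of Paeoniae Radix, the dried root of peony, were compared with HT29 cells treated for 24 h with an ethanol extract of Cnidii Rhizoma, a dried rhizome from a plant of the carrot family, both at the high dose of 500 µg/mL. The members were the 6 libraries that the titles name Paeoniae Radix high replicates 1 to 3 and Cnidii Rhizoma high replicates 1 to 3, of 60 libraries in all. HT29 is an established human colorectal adenocarcinoma line, and RNA was measured by sequencing of mRNA. Each extract was also given at 100 µg/mL (medium) and 20 µg/mL (low), with 3 libraries per dose, and 3 vehicle libraries received dimethyl sulfoxide (DMSO). All of these groups were HT29 cells held for 24 h with no other agent named. The vehicle is labelled 0.1% DMSO, the series text gives a higher percentage, and the solvent carried by each extract dose was not given in the sources used here. Nothing in the labels says whether replicate libraries are separate cultures. The p-values therefore measure only the spread among the sequenced libraries, and that spread may be technical.

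The extracts carry different code numbers in the labels, so at any single dose the extract and its code set cannot be told apart. Each gene was therefore tested at the high dose and again as a double difference, which is the Paeoniae Radix change from 20 to 500 µg/mL minus the Cnidii Rhizoma change from 20 to 500 µg/mL. A gene is described as higher or lower with Paeoniae Radix when both tests passed an adjusted p of 0.05 in the same direction, and this is called passing both tests. Log2 differences are Paeoniae Radix minus Cnidii Rhizoma, with the standard error (SE). Levels are given as CPM, counts scaled to a common library total.

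Cells that meet reactive plant compounds or oxidants stabilise the transcription factor NRF2, which binds antioxidant response elements and raises genes for glutathione synthesis, thioredoxin reduction, NADPH supply, iron storage and carbonyl reduction. Misfolded protein in the endoplasmic reticulum (ER) raises chaperone genes through ATF6 and XBP1, which act at ER stress response elements. Low sterol in the ER membrane frees SREBP2 to raise the genes of cholesterol synthesis, and NF-kB drives chemokine genes such as CXCL8 in colon epithelial cells. PPAR factors raise genes of fatty acid oxidation.

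The 18 libraries of both extracts at 3 doses held 20103402 to 28719469 counts each, and the 6 high-dose libraries held 22251469 to 26335798. The mitochondrial genome took 7.57% to 8.15% of counts in the Paeoniae Radix high libraries and 7.74% to 9.12% in the Cnidii Rhizoma high libraries. Of the vehicle libraries, replicate 3 stood apart, with 12.3% of its counts from the mitochondrial genome. No contrast below uses the vehicle group, but its libraries are among the 51 in the fit and enter the estimate of spread. A fit without them called 4402 genes at the high dose and 2623 in the double difference, in place of 4321 and 2528. All 13 listed colon epithelium markers were measured, and their summed level was 13310 to 13600 CPM with Paeoniae Radix and 10220 to 10480 CPM with Cnidii Rhizoma at the high dose. Fibroblast markers summed to 1.72 to 2.61 CPM, with 2 of 8 markers tested, and the leukocyte markers PTPRC, CD3E and MS4A1 were too low to test. The 4 of 8 leukocyte markers that were tested summed to 1512 to 1549 CPM with Paeoniae Radix and 1601 to 1734 CPM with Cnidii Rhizoma at the high dose. Most of this was LYZ, the gene of lysozyme, which averaged 1516 against 1651 CPM and was lower in both tests (-0.15 ± 0.04 at the high dose, adjusted p = 0.0072 by edgeR). The part of these shares in the differences below was not tested. In RNA from whole cultures, fewer cells of a type and less RNA per cell cannot be told apart.

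Short promoter stretches of genes from 3 of the gene groups are shown here because those groups carried the differences described below. They come from RefSeq on build GRCh38.p14 and lie within 250 bases before a transcription start. Capitals mark the match, which can lie on either strand, and a match describes these letters and is not evidence that a factor was bound. The antioxidant response element core TGACNNNGC was found in 10.9% of 35116 promoter windows and in 6 of the 22 NRF2 target genes with a window. The percentage is of windows, while a gene with several windows counts once if any of them matches. The shares are therefore not in like units, here and for the other motifs. GCLM at chr1:93909436-93909484 (minus strand, match on the other strand), TXNRD1 at chr12:104215660-104215708 (plus strand) and ME1 at chr6:83431160-83431208 (minus strand) read as follows.
GCLM: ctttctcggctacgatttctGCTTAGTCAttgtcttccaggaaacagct
TXNRD1: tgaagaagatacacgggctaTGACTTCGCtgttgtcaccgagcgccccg
ME1: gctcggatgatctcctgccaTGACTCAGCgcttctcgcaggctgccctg

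The ER stress response element, CCAAT followed by any 9 bases and then CCACG, was found in 0.074% of all windows and in 7 of the 21 ER chaperone and unfolded protein response genes with a window. HSPA5 at chr9:125241371-125241429 (minus strand), HSP90B1 at chr12:103930196-103930254 (plus strand), PDIA6 at chr2:10812833-10812891 (minus strand) and CRELD2 at chr22:49918534-49918592 (plus strand, match on the other strand) held it.
HSPA5: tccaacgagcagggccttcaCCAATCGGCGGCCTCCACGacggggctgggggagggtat
HSP90B1: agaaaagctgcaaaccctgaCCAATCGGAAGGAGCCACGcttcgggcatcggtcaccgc
PDIA6: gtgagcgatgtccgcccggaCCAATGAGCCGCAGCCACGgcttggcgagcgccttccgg
CRELD2: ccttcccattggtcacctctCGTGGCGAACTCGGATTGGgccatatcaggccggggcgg

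The NF-kB site GGAATTTCC was found in 0.413% of all windows and in 9 of the 17 NF-kB target genes with a window. Of these 9 genes, CXCL2, CXCL3, CXCL6 and NFKBIA did not pass both tests. NFKBIA was lower at the high dose (-0.20 ± 0.07, adjusted p = 0.025 by edgeR). The genes printed are among those that passed as higher. CXCL8 at chr4:73740458-73740506, CXCL1 at chr4:73869295-73869343 and NFKBIZ at chr3:101827748-101827796 (all plus strand) held the site.
CXCL8: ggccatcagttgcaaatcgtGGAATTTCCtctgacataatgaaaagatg
CXCL1: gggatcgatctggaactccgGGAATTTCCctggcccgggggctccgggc
NFKBIZ: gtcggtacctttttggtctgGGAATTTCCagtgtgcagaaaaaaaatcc

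Cells given Paeoniae Radix at the high dose had less RNA than cells given Cnidii Rhizoma, in both tests, for all 32 NRF2 target genes and for 20 of 23 genes of ER chaperones and the unfolded protein response. The same held for 14 of 23 PPAR and fatty acid oxidation genes, of which 1 was higher, and for 6 of 13 goblet cell genes. They had more RNA in both tests for 21 of 25 cholesterol synthesis genes and 18 of 26 mitosis genes. Of 19 NF-kB targets 9 were higher, the chemokines CXCL8 and CXCL1 among them, and 1 was lower, and the epidermal growth factor family ligands AREG and EREG were also higher. Of 16607 genes tested, 4321 (26.0%) differed at the high dose by edgeR's quasi-likelihood test, 2136 higher (12.9%) and 2185 lower (13.2%) with Paeoniae Radix. The median absolute log2 difference over all genes was 0.14 at the high dose and 0.06 at the low dose. At 20 µg/mL, 7 genes (0.0422%) differed, 3 higher (0.0181%) and 4 lower (0.0241%) with Paeoniae Radix, and 1344 genes were below an unadjusted p of 0.05. By DESeq2, 21 genes differed at the low dose. The double difference was called for 2528 genes (15.2%), 1302 higher (7.84%) and 1226 lower (7.38%). With library totals in place of TMM factors the split was 2513 higher and 1782 lower at the high dose (58.5% higher against 49.4%) and 1596 higher and 1003 lower in the double difference (61.4% against 51.5%). The 3 libraries of each extract at the high dose did not overlap in CPM for 6059 genes (36.5%), in 20.6% of genes with Paeoniae Radix higher and in 15.9% with it lower.

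Both tests were passed by 2371 genes (14.3%), of which 1246 were higher (7.50% of genes tested) and 1125 lower (6.77%) with Paeoniae Radix. Another 1950 genes differed at the high dose and were not called in the double difference. Changes of at least 2-fold at the high dose were seen in 72 of the higher genes and 127 of the lower genes that passed both tests. When the 3 Astragali Radix high libraries, which the fit left out, were added to it, 1885 genes were called at the high dose, 1 at the low dose and 722 in the double difference. Of 240 single-gene results, 41 then lost their call. Those losing the high-dose call included HSP90B1, TOP2A, CENPF, RRM2, MKI67, MT1E and MT2A. Those losing the double difference included HSP90B1, TOP2A, CENPF, RRM2, MT1E, MT1X, DDIT4, SCD, ACSS2, FASN, KRT20, AXIN2 and MYC. The low-dose count was moved by single libraries, to 3 genes without Paeoniae Radix low replicate 1, 81 without replicate 2, 3 without replicate 3 and 2 without Cnidii Rhizoma low replicate 2.

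**Figure D1:**
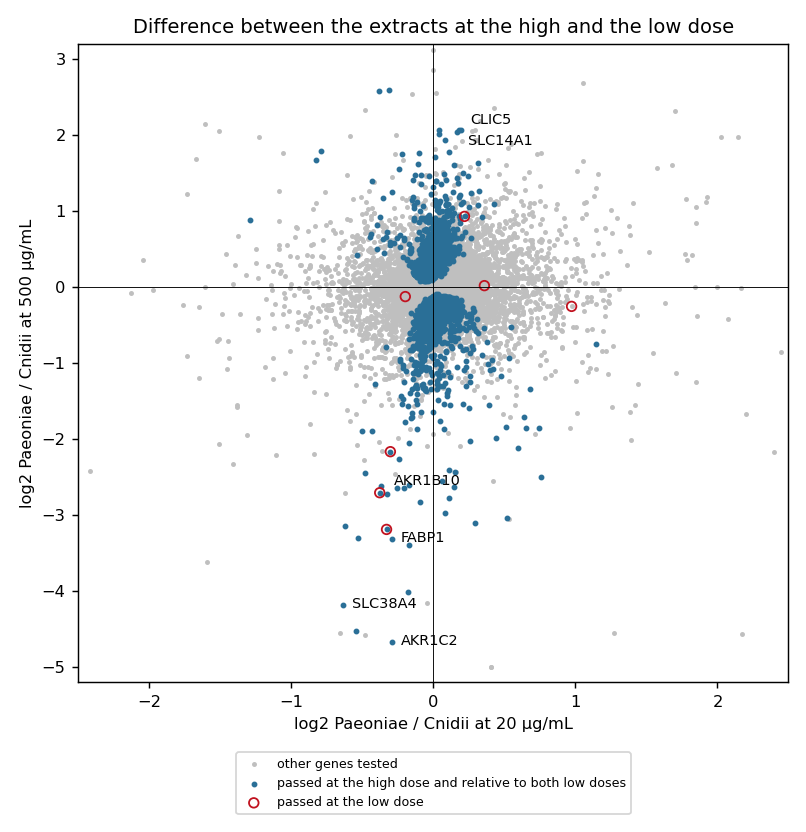
Log2 difference between Paeoniae Radix and Cnidii Rhizoma at 20 µg/mL (horizontal axis) against that at 500 µg/mL (vertical axis), 1 point per gene tested, coloured by whether the gene passed both tests. The genes that passed both tests spread along the vertical axis while their low-dose differences stay near 0. The double difference partly selects for this, since it takes the low-dose difference away from the high-dose one. Outside the axis limits lie 64 genes.

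The change from 20 to 500 µg/mL was called in 1579 genes for Paeoniae Radix (9.51%), 904 higher (5.44%) and 675 lower (4.06%) at the high dose, and in 3934 genes for Cnidii Rhizoma (23.7%), 2011 higher (12.1%) and 1923 lower (11.6%). These percentages are the all-gene shares to set beside the dose counts of each gene list below. The Paeoniae Radix count was 928 without its high replicate 1 and 1029 without its low replicate 3. Genes called in both changes moved in the same direction in 615 cases and in opposite directions in 188 cases. The share of called genes that were higher at the high dose depended on the scaling: with library totals in place of TMM factors it went from 57.3% to 44.1% for Paeoniae Radix and from 51.1% to 33.3% for Cnidii Rhizoma. At 100 µg/mL the extracts differed in 714 genes (4.30%), 374 higher (2.25%) and 340 lower (2.05%) with Paeoniae Radix. The share that was higher was 52.4%, and with library totals it was 69.9% of 764 genes. The medium-dose count was 409 without Paeoniae Radix medium replicate 2, 447 without Cnidii Rhizoma medium replicate 1 and 458 without Cnidii Rhizoma medium replicate 3. With the Astragali Radix high libraries, 303, 1744 and 85 genes were called in the Paeoniae Radix change, the Cnidii Rhizoma change and the medium-dose comparison.

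**Figure D2:**
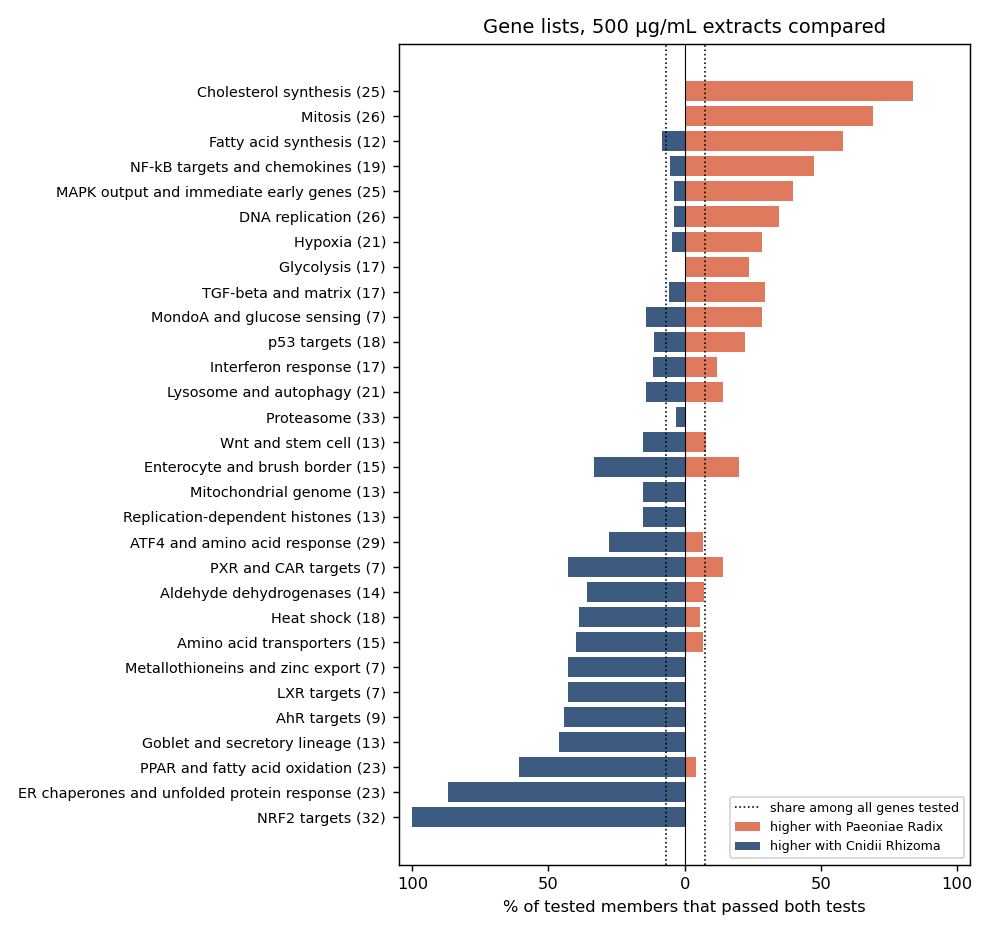
Percentage of the tested members of each gene list that passed both tests, higher with Paeoniae Radix and lower with Paeoniae Radix. Dotted lines mark the shares over all genes tested, 7.50% higher and 6.77% lower, and the NRF2 targets are all on the lower side.

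All 32 NRF2 target genes on the list were tested, and all 32 were lower with Paeoniae Radix than with Cnidii Rhizoma in both tests, with a median log2 difference of -1.08 at the high dose against -0.01 over all genes. All 32 rose from 20 to 500 µg/mL with Cnidii Rhizoma, by a median of 1.26. With Paeoniae Radix 17 of them rose and none was called lower, with a median of 0.20. At 100 µg/mL 26 of the 32 were already lower with Paeoniae Radix (median -0.42), and at 20 µg/mL 1 was. DESeq2 called 31 of the 32 in both tests.

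The largest difference in the group was in AKR1C2 (ENSG00000151632, chr10:4987400-5018031, minus strand), an aldo-keto reductase that acts on steroids and reactive aldehydes. Its level was 12.9, 12.5 and 12.4 CPM in the Paeoniae Radix high libraries and 326, 314 and 303 CPM in the Cnidii Rhizoma high libraries. The groups were far apart. They did not overlap, which was a condition for the 12 largest differences and held for 36.5% of genes tested. The log2 difference was -4.67 ± 0.07 (SE, adjusted p = 1.1e-39), and the low-dose means were 10.7 ± 0.47 and 13.2 ± 0.56 CPM (SD, n = 3). AKR1C2 rose by 4.62 with Cnidii Rhizoma (adjusted p = 8.2e-40), and its change with Paeoniae Radix was 0.25 (adjusted p = 0.12). Its relatives AKR1C1 and AKR1C3 differed by -3.39 and -2.64 on the log2 scale, but these near-identical genes share reads, so the split among them is uncertain. AKR1B10, which reduces retinal and other carbonyls, was at 145, 138 and 137 CPM with Paeoniae Radix and at 944, 871 and 880 CPM with Cnidii Rhizoma. It was among the genes that already differed at 20 µg/mL (-0.38 on the log2 scale, adjusted p = 3e-07), and the high-dose difference was -2.71 ± 0.04. It rose with both extracts, by 0.62 with Paeoniae Radix and 2.95 with Cnidii Rhizoma.

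HMOX1 (chr22:35380361-35394214, plus strand), which breaks down heme, was at 13.6, 11.7 and 11.4 CPM with Paeoniae Radix and 72.3, 74.0 and 72.4 CPM with Cnidii Rhizoma. The low-dose means were 10.9 and 12.4 CPM, so the Paeoniae Radix high libraries sat close to both low doses. The log2 difference was -2.60 ± 0.05 (adjusted p = 3.7e-36), and the Paeoniae Radix change of 0.18 did not pass (adjusted p = 0.089). Genes of glutathione synthesis followed the same order. The glutamate-cysteine ligase subunits GCLC and GCLM differed by -1.57 ± 0.06 and -1.34 ± 0.06. The cystine importer SLC7A11 was at 213, 211 and 202 CPM with Paeoniae Radix and 519, 501 and 485 CPM with Cnidii Rhizoma, and it rose with both, by 0.638 and 1.804. Thioredoxin reductase TXNRD1 rose from a mean of 320 to 404 CPM with Paeoniae Radix and from 367 to 852 CPM with Cnidii Rhizoma. NQO1, a quinone reductase, differed by -1.03 ± 0.03, and FTL, the ferritin light chain that stores iron, by -1.05 ± 0.05. The NADPH-supplying enzyme ME1 differed by -0.78. The smallest difference in the list was in TALDO1, a pentose phosphate enzyme, at -0.37 ± 0.04.

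**Figure D3:**
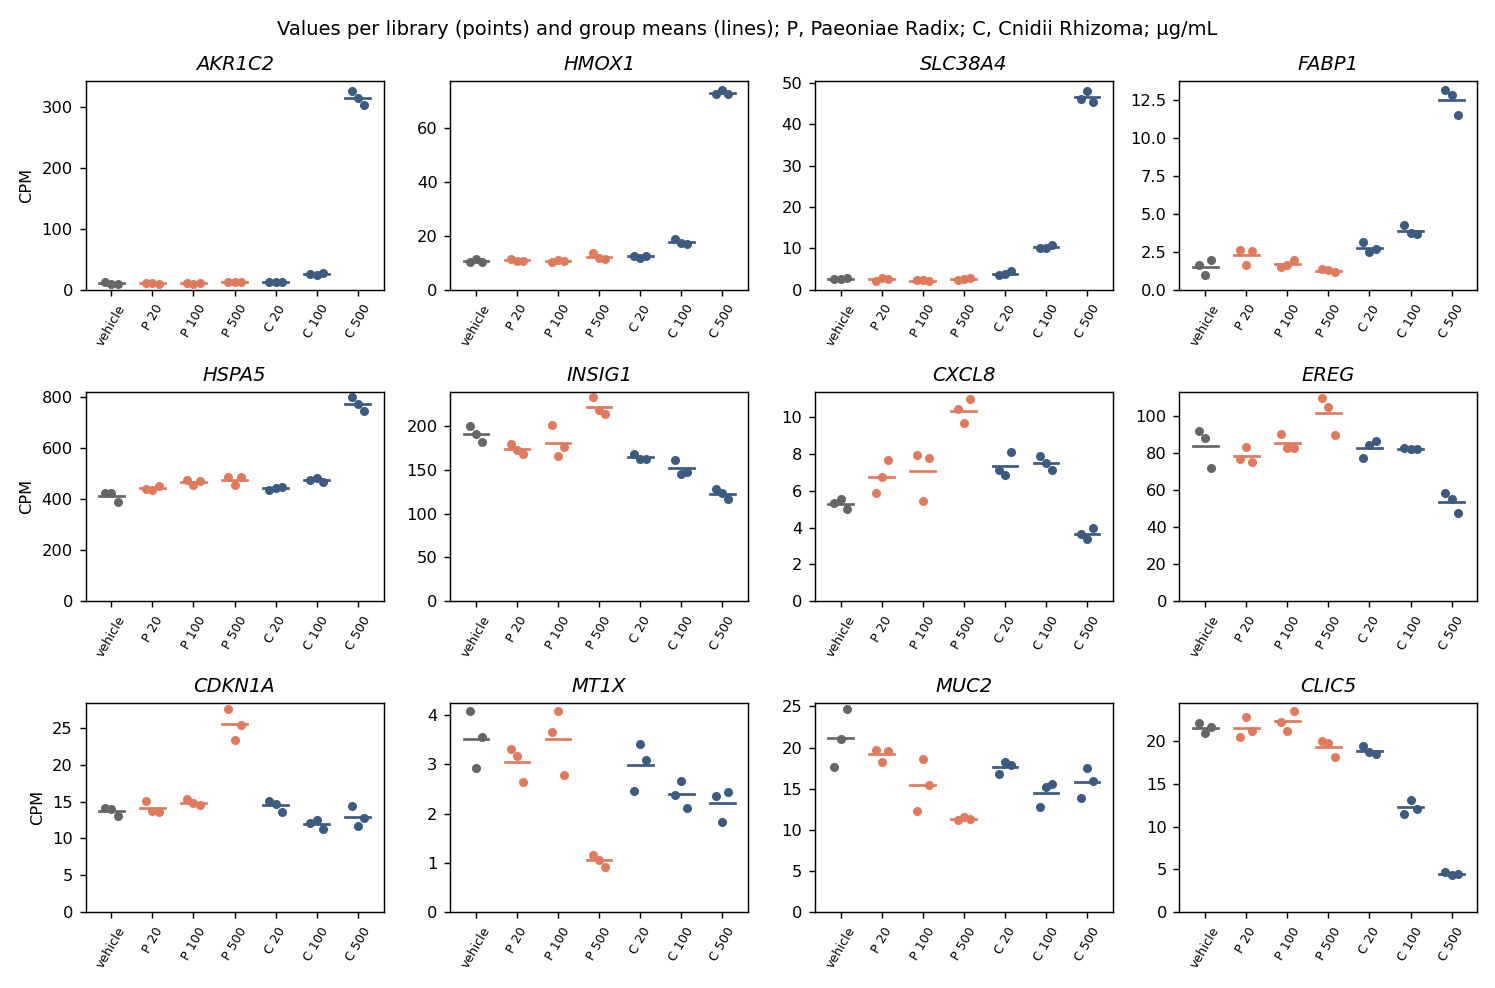
CPM of 12 genes in each vehicle, Paeoniae Radix and Cnidii Rhizoma library, 1 point per library, with dose groups along the horizontal axis. AKR1C2, HMOX1, SLC38A4 and FABP1 are highest in the 3 Cnidii Rhizoma high libraries, and CLIC5 is lowest there.

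Genes that other xenobiotic receptors drive were mixed. Of 9 AhR targets tested, 4 were lower and none was higher in both tests, with a median of -0.64 at the high dose. In the double difference by itself, 2 of the 9 were called higher and 4 lower. The classical target CYP1A1 did not pass at the high dose (-0.79 ± 0.43, adjusted p = 0.19 by edgeR). ALDH3A1, an aldehyde dehydrogenase, was at 28.8, 30.7 and 30.7 CPM with Paeoniae Radix and at 132, 133 and 133 CPM with Cnidii Rhizoma. It was called at the low dose as well, by -0.30 (adjusted p = 0.00062), and was at -2.17 ± 0.04 at the high dose. NQO1 and UGT1A6 (-1.13 ± 0.05) also belong to this list, and the UGT1A transcripts share exons, so the counts of single UGT1A genes are uncertain. Of 7 PXR and CAR targets tested, 3 were lower and 1 was called higher. CYP2B6, a drug-oxidising cytochrome, was at 2.52, 2.37 and 2.41 CPM with Paeoniae Radix and 7.22, 7.06 and 8.40 CPM with Cnidii Rhizoma, a difference of -1.66 ± 0.13. Of 14 aldehyde dehydrogenases, 5 were lower and 1 was higher. ALDH1A1, which makes retinoic acid, was lower by -1.04 ± 0.04, and ALDH1A3, which does the same, was higher by 1.18 ± 0.10, with a fall of 1.22 under Cnidii Rhizoma.

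PPAR targets and fatty acid oxidation genes were lower with Paeoniae Radix in 14 of 23 tested members and higher in 1, with a median of -0.39. With Cnidii Rhizoma 15 of the 23 rose with dose and 1 fell, and with Paeoniae Radix 2 rose and 4 fell. FABP1, the intestinal and hepatic fatty acid binding protein, was at 1.348, 1.304 and 1.162 CPM with Paeoniae Radix and at 13.11, 12.80 and 11.48 CPM with Cnidii Rhizoma. The low doses lay between these, at 2.27 ± 0.565 and 2.78 ± 0.366 CPM (SD, n = 3). The vehicle mean was 1.52 ± 0.48 CPM (SD, n = 3), below both low-dose means. FABP1 fell with Paeoniae Radix, by 0.81 on the log2 scale (adjusted p = 0.0032), and rose with Cnidii Rhizoma, by 2.21 (adjusted p = 3.9e-18). PDK4, which blocks entry of pyruvate into the citric acid cycle, differed by -2.05 ± 0.09, and CPT1A, the entry step of mitochondrial fatty acid oxidation, by -0.71 ± 0.04. CYP4F11, a fatty acid hydroxylase whose close relatives share reads with it, differed by -3.31 ± 0.16.

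Other genes with large differences were of varied kinds. SLC38A4, an amino acid transporter, was at 2.34, 2.69 and 2.78 CPM with Paeoniae Radix and 46.0, 48.1 and 45.5 CPM with Cnidii Rhizoma. The groups differed by -4.18 ± 0.13 (adjusted p = 1.2e-28), and by -2.20 ± 0.15 already at 100 µg/mL. LRRC31, a leucine-rich repeat protein, was at 0.72, 0.87 and 0.66 CPM against 5.54, 5.28 and 5.09 CPM. The long noncoding RNAs AL033397.1 (-4.01 ± 0.20) and LINC00942 (-2.72 ± 0.28) were also among the 12 largest lower differences. So was the pseudogene NMRAL2P, a member of the NRF2 list, whose double difference did not pass without Paeoniae Radix low replicate 2 (adjusted p = 0.061).

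In the other direction the largest difference was in CLIC5, an intracellular chloride channel protein that links membranes to actin. It was at 20.0, 19.8 and 18.1 CPM with Paeoniae Radix and 4.73, 4.33 and 4.48 CPM with Cnidii Rhizoma. The Paeoniae Radix libraries were near the low-dose means of 21.4 and 18.8 CPM, and the fall was with Cnidii Rhizoma, by 2.02 on the log2 scale. Its high-dose difference was 2.07 ± 0.07 (adjusted p = 7.8e-28), with 0.84 ± 0.05 at 100 µg/mL. SLC14A1, a urea transporter, was at 4.76, 4.78 and 4.61 CPM against 1.12, 1.37 and 0.836 CPM. It fell with both extracts, by 0.37 with Paeoniae Radix and by 2.25 with Cnidii Rhizoma. SYTL2, a vesicle trafficking protein, differed by 1.60 ± 0.07, the growth factor BDNF by 1.77 ± 0.23 and SCEL, a cornified envelope protein, by 1.76 ± 0.18. DKK1, a secreted Wnt antagonist, differed by 1.40 ± 0.12. The pseudogene HLA-V (2.07 ± 0.15), the antisense RNA IGFL2-AS1 (1.44 ± 0.14) and the lectin receptor KLRC2 (1.64 ± 0.21) completed the 12 largest higher differences with CXCL8, and near-identical relatives of HLA-V and KLRC2 may share reads with them. RGS2, which dampens G-protein signalling, and AKAP12, a kinase scaffold, rose with dose under Paeoniae Radix and fell under Cnidii Rhizoma. The changes were 0.321 and -0.995 for RGS2, and 0.83 and -0.72 for AKAP12. For RGS2 the vehicle mean was 28.08 CPM, against 24.03 CPM in the Paeoniae Radix low libraries and 29.65 CPM in the high libraries. For AKAP12 these means were 14.95, 9.152 and 16.18 CPM. The Paeoniae Radix high means were thus nearer the vehicle means than the Paeoniae Radix low means were. Differences from vehicle were not tested.

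All 23 ER chaperone and unfolded protein response genes tested were lower with Paeoniae Radix at the high dose, with a median of -0.57, and 20 of the 23 passed both tests. DERL3, EDEM1 and SEL1L, which serve degradation of ER proteins, did not pass the double difference. All 23 rose with dose under Cnidii Rhizoma (median 0.70), and 11 rose under Paeoniae Radix (median 0.11). At 100 µg/mL 1 of the 23 differed.

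HSPA5, the main Hsp70 chaperone of the ER, was at 486, 454 and 484 CPM with Paeoniae Radix and 797, 770 and 743 CPM with Cnidii Rhizoma. The log2 difference was -0.72 ± 0.03 (adjusted p = 3.4e-22), against 0.00 ± 0.03 at the low dose. HSPA5 rose with both extracts, by 0.12 (adjusted p = 0.011) and 0.85 (adjusted p = 7.4e-25). HSP90B1, the ER Hsp90, differed by -0.63 ± 0.02, the disulfide isomerase PDIA6 by -0.49 ± 0.03 and CRELD2, an ER folding factor, by -0.66 ± 0.07. These are the genes whose promoter windows are printed above. The largest differences in the group were in CREB3L2, a membrane-bound transcription factor for secretory genes, at 23.3, 23.7 and 19.7 CPM against 59.8, 56.9 and 60.6 CPM. DNAJB9, a co-chaperone of HSPA5, was at 14.2, 16.4 and 17.3 CPM against 31.72, 30.04 and 26.94 CPM, and it rose with both, by 0.47 and 1.31.

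The ATF4 and amino acid response genes split. Of 29 tested, 8 were lower and 2 were higher, with a median of -0.09, and over the dose range 16 of the 29 rose with Paeoniae Radix, while 21 rose and 1 fell with Cnidii Rhizoma. Asparagine synthetase ASNS was at 70.1, 71.7 and 71.6 CPM with Paeoniae Radix and 114, 108 and 103 CPM with Cnidii Rhizoma (-0.63 ± 0.04). PHGDH, the first step of serine synthesis, differed by -0.60 ± 0.05. Against these, DDIT4, an inhibitor of mTORC1, was at 27.5, 23.9 and 27.0 CPM with Paeoniae Radix and at 16.1, 15.8 and 13.9 CPM with Cnidii Rhizoma (0.75 ± 0.08). PPP1R15A, which directs the phosphatase that reverses eIF2α phosphorylation, rose by 0.43 with Paeoniae Radix and fell by 0.27 with Cnidii Rhizoma. DDIT3, the transcription factor CHOP, passed at the high dose (0.49 ± 0.11) but not in the double difference (adjusted p = 0.11). CHAC1, which degrades glutathione, did not pass at the high dose (0.24 ± 0.12, adjusted p = 0.12), and it rose with both extracts, by 0.86 and 0.61. TRIB3, a pseudokinase target of ATF4 and CHOP, rose with both, by 0.55 and 0.41, with a double difference of 0.15 ± 0.07 (adjusted p = 0.17).

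**Figure D4:**
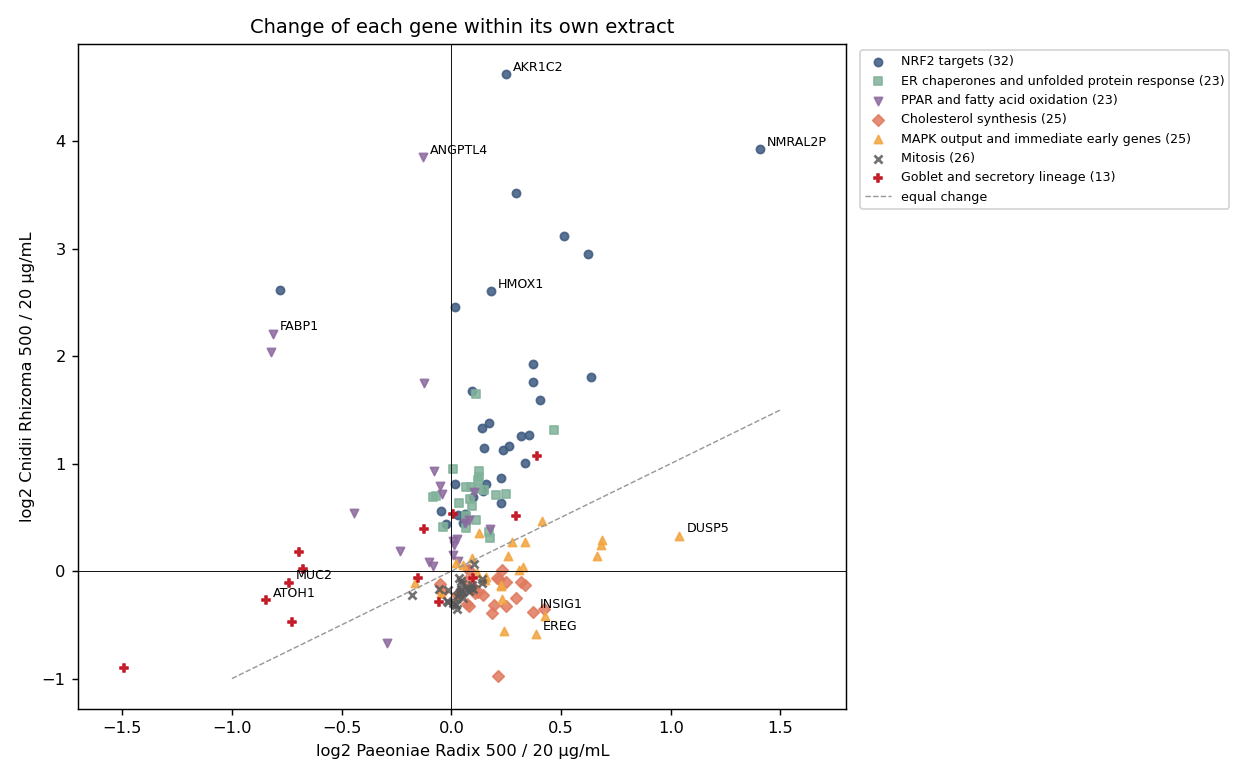
Log2 change from 20 to 500 µg/mL with Paeoniae Radix (horizontal axis) against that with Cnidii Rhizoma (vertical axis) for the members of 7 gene lists. NRF2 targets lie above 0 on the vertical axis in all 32 cases, cholesterol synthesis genes fall mostly in the quadrant of a rise with Paeoniae Radix and a fall with Cnidii Rhizoma, and mitosis genes lie near 0 on the horizontal axis.

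Heat shock genes were lower in 7 and higher in 1 of 18 tested, with a median of -0.13. They rose in 11 and fell in 2 with Cnidii Rhizoma, and with Paeoniae Radix none was called higher and 1 was called lower. The inducible cytosolic Hsp70 genes HSPA1A and HSPA1B are near-identical, so only their group is described. Of 33 proteasome genes 1 was lower, and none was called higher.

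Cholesterol synthesis and related genes were higher with Paeoniae Radix at the high dose in 24 of 25 members, and 21 of 25 passed both tests, with a median of 0.40. Within their own dose ranges 11 of the 25 rose with Paeoniae Radix and none was called lower, while 16 fell with Cnidii Rhizoma and none was called higher. INSIG1, which retains the SREBP complex in the ER, was at 234, 219 and 214 CPM with Paeoniae Radix and at 128, 123 and 117 CPM with Cnidii Rhizoma. The low-dose means were 174 and 165 CPM, between the high-dose groups. INSIG1 rose by 0.37 with Paeoniae Radix (adjusted p = 2.2e-05) and fell by 0.38 with Cnidii Rhizoma (adjusted p = 4.9e-06), and the high-dose difference was 0.83 ± 0.06. HMGCS1, which makes HMG-CoA, was at 348, 308 and 309 CPM against 239, 202 and 194 CPM and differed by 0.58 ± 0.07. Its fall of 0.39 with Cnidii Rhizoma passed (adjusted p = 7.1e-05), and its change of 0.18 with Paeoniae Radix did not (adjusted p = 0.12).

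Fatty acid synthesis genes were higher in 7 of 12 and lower in 1. SCD, which makes monounsaturated fatty acids, was at 2470, 2298 and 2254 CPM with Paeoniae Radix and at 1630, 1694 and 1647 CPM with Cnidii Rhizoma. It rose by 0.32 with the first and fell by 0.12 with the second. ACSS2, which makes acetyl-CoA from acetate, differed by 0.86 ± 0.09, the phosphatidate phosphatase LPIN1 by 0.82 ± 0.09 and fatty acid synthase FASN by 0.36 ± 0.04. LXR targets, which include the cholesterol exporter ABCA1, were lower in 3 of 7 and none was called higher. ABCA1 differed by -0.43 ± 0.12 and fell with Paeoniae Radix, by 0.65 (adjusted p = 0.00017).

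NF-kB targets and chemokines were higher with Paeoniae Radix in 9 of 19 tested members and lower in 1, with a median of 0.53. With Cnidii Rhizoma 8 of the 19 fell with dose and none was called higher, and with Paeoniae Radix 3 rose and 2 fell. CXCL8, the neutrophil chemokine IL-8, was at 10.4, 9.68 and 11.0 CPM with Paeoniae Radix and 3.65, 3.38 and 3.99 CPM with Cnidii Rhizoma. Both low doses lay between the high-dose groups, at 6.76 ± 0.90 and 7.37 ± 0.66 CPM (SD, n = 3). CXCL8 rose by 0.64 with Paeoniae Radix (adjusted p = 8.8e-06) and fell by 0.96 with Cnidii Rhizoma (adjusted p = 4.9e-09), with a high-dose difference of 1.47 ± 0.11. CXCL1, a chemokine of the same family, was at 1.98, 2.53 and 2.03 CPM against 0.731, 1.22 and 0.798 CPM. NFKBIZ, a nuclear IkB protein, was at 53.2, 52.8 and 58.3 CPM against 33.6, 32.3 and 33.2 CPM. Both CXCL1 and NFKBIZ fell with Cnidii Rhizoma, by 1.09 and 0.63, and their changes with Paeoniae Radix of 0.14 and -0.04 did not pass. BIRC3, an inhibitor of apoptosis, differed by 1.04 ± 0.13.

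MAPK output and immediate early genes were higher in 10 of 25 and lower in 1, with a median of 0.28. With Paeoniae Radix 16 rose and 1 fell with dose, and with Cnidii Rhizoma 6 rose and 7 fell. EREG and AREG encode epiregulin and amphiregulin, ligands of the epidermal growth factor receptor. EREG was at 109.7, 104.6 and 89.66 CPM with Paeoniae Radix and at 58.3, 54.9 and 47.5 CPM with Cnidii Rhizoma (0.90 ± 0.06). AREG differed by 0.87 ± 0.05, with a rise of 0.42 and a fall of 0.42 over the dose ranges. DUSP5, a phosphatase that switches off ERK, was at 7.91, 6.84 and 8.88 CPM against 4.94, 4.25 and 4.07 CPM, and it rose with both extracts, by 1.04 and 0.33. DUSP4, another phosphatase of the family, differed by 0.83 ± 0.06. MYC, a growth-promoting transcription factor, was the member that was lower, by -0.28 ± 0.04.

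The p53 targets were higher in 4 and lower in 2 of 18. CDKN1A, the cyclin-dependent kinase inhibitor p21, was at 27.5, 23.4 and 25.4 CPM with Paeoniae Radix and at 14.4, 11.7 and 12.7 CPM with Cnidii Rhizoma (0.95 ± 0.08, adjusted p = 5.9e-14). CDKN1A rose by 0.86 with Paeoniae Radix, and its change of -0.12 with Cnidii Rhizoma did not pass (adjusted p = 0.34). BBC3, the cell death gene PUMA, was lower, by -0.39 ± 0.10, and SESN1, a stress-induced sestrin, was higher, by 0.39 ± 0.06.

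Mitosis genes were higher with Paeoniae Radix in 23 of 26 members at the high dose, and 18 of 26 passed both tests, with a median of 0.20. With Cnidii Rhizoma 20 of the 26 fell with dose, and with Paeoniae Radix none was called in either direction. TOP2A, which untangles DNA before division, was at 470, 479 and 472 CPM with Paeoniae Radix and at 380, 395 and 356 CPM with Cnidii Rhizoma. The groups did not overlap, and the fall with Cnidii Rhizoma was 0.32. CENPF, a kinetochore protein, differed by 0.30 ± 0.05 and KIF20A, a cytokinesis motor, by 0.28 ± 0.05. MKI67, the Ki-67 antigen, passed at the high dose (0.22 ± 0.07, adjusted p = 0.021) and not in the double difference (adjusted p = 0.061). The MKI67 high-dose call was lost without Paeoniae Radix high replicate 1 (adjusted p = 0.053) or Cnidii Rhizoma high replicate 1 (adjusted p = 0.12). DNA replication genes were higher in 9 and lower in 1 of 26. RRM2, which makes deoxynucleotides, rose by 0.21 with Paeoniae Radix and fell by 0.15 with Cnidii Rhizoma. The lower gene was CDC6, which loads the replicative helicase, at -0.25 ± 0.03.

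Hypoxia genes were higher in 6 and lower in 1 of 21, and glycolysis genes were higher in 4 of 17 with none called lower. Over the dose range 13 of 21 hypoxia and 13 of 17 glycolysis genes rose with Paeoniae Radix. With Cnidii Rhizoma 9 and 8 rose, and 2 and 1 fell. BHLHE40, a transcriptional repressor, was at 17.5, 14.8 and 15.3 CPM against 7.13, 8.01 and 7.98 CPM (1.013 ± 0.091). SLC2A1, the glucose transporter GLUT1, was at 688, 682 and 658 CPM against 532, 518 and 520 CPM (0.34 ± 0.03). ALDOC, an aldolase, differed by 0.82 ± 0.06. NDRG1, a hypoxia-induced growth regulator, passed as lower at the high dose (-0.25 ± 0.08) but not in the double difference (adjusted p = 0.054). The NDRG1 high-dose call was lost without Paeoniae Radix high replicate 3 (adjusted p = 0.066) or Cnidii Rhizoma high replicate 3 (adjusted p = 0.10).

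Goblet and secretory lineage genes were lower with Paeoniae Radix in 6 of 13 tested members and none was called higher, with a median of -0.50. With Paeoniae Radix 6 fell with dose and none rose, and with Cnidii Rhizoma 2 rose and 2 fell. Over all genes 5.44% rose and 4.06% fell with Paeoniae Radix, and 12.1% rose and 11.6% fell with Cnidii Rhizoma. The Cnidii Rhizoma counts of this list are near those shares. MUC2, the gel-forming mucin of goblet cells, was at 11.19, 11.54 and 11.29 CPM with Paeoniae Radix and at 13.8, 17.5 and 16.0 CPM with Cnidii Rhizoma. The low-dose means were 19.2 and 17.6 CPM, so the Paeoniae Radix libraries lay furthest from them. MUC2 fell by 0.74 with Paeoniae Radix (adjusted p = 1.5e-05), its change with Cnidii Rhizoma was -0.11 (adjusted p = 0.55), and the high-dose difference was -0.50 ± 0.12. FCGBP, a mucus protein, was at 11.6, 9.56 and 9.04 CPM against 17.8, 21.5 and 19.6 CPM (-0.99 ± 0.11). ATOH1, the transcription factor that sets the secretory lineage, fell by 0.85 with Paeoniae Radix, but its double difference (adjusted p = 0.019) did not pass when Paeoniae Radix low replicate 2, Paeoniae Radix high replicate 3 or Cnidii Rhizoma high replicate 2 or 3 was left out. AGR2, a disulfide isomerase needed for mucin folding, had another pattern over the doses. Its change with Paeoniae Radix of 0.01 did not pass (adjusted p = 0.94), and it rose by 0.54 with Cnidii Rhizoma.

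Enterocyte and brush border genes were split, with 3 higher and 5 lower of 15 tested. The colon epithelium markers used to check the cell line were also split, with 5 higher and 5 lower of 13. The simple epithelial keratin KRT18 was at 4014, 4099 and 4146 CPM with Paeoniae Radix and at 2889, 2827 and 2853 CPM with Cnidii Rhizoma (0.49 ± 0.03), and KRT19 was also higher (0.66 ± 0.03). KRT20, the keratin of differentiated colon cells, was lower (-0.65 ± 0.06), and so was the surface glycoprotein CEACAM5 (-1.71 ± 0.11). The Wnt and stem cell list had 1 higher and 2 lower of 13. The Wnt feedback gene AXIN2 fell by 0.13 with Paeoniae Radix and rose by 0.18 with Cnidii Rhizoma over the dose range. Its high-dose means were 65.5 and 82.54 CPM, both below the vehicle mean of 90.24 CPM. The crypt receptor EPHB2 differed by -1.06 ± 0.11.

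Metallothionein and zinc export genes were lower in 3 of 7 and none was called higher. Both extracts lowered members of the group: 5 fell with Paeoniae Radix and 4 with Cnidii Rhizoma. MT1X was at 1.17, 1.07 and 0.913 CPM with Paeoniae Radix and at 2.36, 1.82 and 2.43 CPM with Cnidii Rhizoma, and it fell by 1.52 with Paeoniae Radix. MT1E, at a mean of 38.9 against 56.4 CPM, fell with both extracts, by 0.99 and 0.57. MT2A did not pass the double difference (adjusted p = 0.15). Metallothioneins are short and close in sequence, so reads can be divided between them in more than 1 way.

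Among the remaining lists, the numbers passing both tests were 1 higher and 6 lower of 15 amino acid transporters, 3 higher and 3 lower of 21 lysosome and autophagy genes, 5 higher and 1 lower of 17 TGF-beta and matrix genes and 2 higher and 2 lower of 17 interferon genes. No replication-dependent histone gene or mitochondrially encoded gene was called higher, and 2 of 13 were lower in each of these lists. Of the 7 MondoA and glucose sensing genes 2 were higher and 1, TXNIP, was lower (-0.42 ± 0.05).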

How the data were processed

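Directional mRNA libraries from an MGI kit were sequenced as 100 bp paired-end reads, per the labels' protocols. Values are expected counts per gene, which the authors deposited in 1 table. The submitters' processing notes name FastQC 0.11.9, Trim Galore 0.6.5, STAR 2.7.3a, RSEM 1.3.3 and the build hg38. The annotation release and the strand setting were not given in the sources used here, so overlapping or antisense genes may share reads. The table has 60675 gene rows and 273 sample columns, of which 213 match no sample of the labels and were not used.

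Expected counts (8.78% not whole) were rounded, which changed a library's total by at most 0.000236%. Gene names came from a name table (41209 identifiers) and GENCODE release 29 (15846), and genes without a name held 0.0504% of counts. edgeR 4.0.16 in R 4.3.3 was fitted to 51 libraries in 18 groups with TMM scaling, filterByExpr and the quasi-likelihood F test, leaving out the Astragali Radix high libraries and formulas with 1 library, with 33 residual degrees of freedom. P-values were adjusted by Benjamini-Hochberg over all 16607 genes, with a threshold of 0.05. The SE is the absolute log2 difference divided by the square root of F. The test was tested on simulated data.

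Some genes that the naming rule selects are not reported here. The comparison and the 36 gene lists (645 of 647 members matched) were chosen with earlier results of these data known. Genes named are the 12 largest differences in each direction among those passing both tests with at least 2 CPM and no overlap, up to 4 per list, and a fixed set. DERL3, EDEM1, SEL1L, GCLC, FTL, ME1, TALDO1, CPT1A, HSP90B1, PDIA6, CRELD2, FASN, MYC and, in the closing section, IDI1, MVK, KLF6 and ICAM1 were added after their values were seen. Replicate numbers were not used to pair libraries. Over all genes, deviations of same-numbered libraries correlated at -0.035 to 0.073, and those of differently numbered libraries at -0.092 to 0.064. This cannot show that pairing is absent, since a replicate effect in part of the genes could be missed. HMGCS1, INSIG1, GCLC, GCLM and KRT20 were among the genes highest in replicate 1 of every dose group of both extracts. The main fit did not model such a shared replicate effect. With a replicate block each count of called genes was larger, as given in the closing section. No pair of libraries agreed within sampling noise, the chi-square per gene being 1.92 to 6.01 within the groups of both extracts. DESeq2 1.42.0 and the other alternatives are in the closing section.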

Additional observations from a re-analysis of the deposited data

Results flagged for a closer look

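In 21 of the genes examined one by one, the change from 20 to 500 µg/mL passed in opposite directions with the 2 extracts and the difference between the changes passed as well (edgeR's quasi-likelihood test). The values below are these double differences on the log2 scale, negative where the gene fell with Paeoniae Radix and rose with Cnidii Rhizoma. All were selected for having opposite directions. The vehicle group was not part of these changes. No explanation of them was tested.

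Genes that fell with Paeoniae Radix and rose with Cnidii Rhizoma were FABP1 (-3.02), OAS1 (-0.77) and AXIN2 (-0.31). FABP1 serves fatty acid handling, OAS1 is an interferon-induced enzyme that senses double-stranded RNA, and AXIN2 is a Wnt feedback gene. In that order, the vehicle means were 1.52, 21.96 and 90.24 CPM. The means were 1.27, 18.18 and 65.5 CPM with Paeoniae Radix high, and 12.46, 31.71 and 82.54 CPM with Cnidii Rhizoma high. AXIN2 was thus below the vehicle mean in both. OAS1 was at 18.6, 19.1 and 16.9 CPM in the Paeoniae Radix high libraries and at 30.8, 30.5 and 33.8 CPM in the Cnidii Rhizoma high libraries, with no overlap.

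Genes of sterol and fatty acid supply rose with Paeoniae Radix and fell with Cnidii Rhizoma. The double differences were 0.75 for INSIG1, 0.66 for the lysosomal cholesterol exporter NPC1, 0.57 for mevalonate kinase MVK, 0.55 for the isomerase IDI1 and 0.44 for SCD. NPC1 was at 74.7, 67.1 and 66.5 CPM with Paeoniae Radix high and 45.4, 45.8 and 42.3 CPM with Cnidii Rhizoma high, on either side of both low-dose means (51.01 and 52.95 CPM).

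The same pattern was found in signalling and chemokine genes, with double differences of 1.60 for CXCL8, 1.55 for AKAP12, 1.32 for RGS2, 0.97 for EREG, 0.84 for AREG and 0.79 for DUSP4. The adhesion molecule ICAM1 had 0.76. Its value was 0.32 and did not pass (adjusted p = 0.20) when the offset between code sets came from the other 2 low doses alone. These were Angelicae Gigantis Radix at 12.8 µg/mL (replicates 2 and 3) and Rehmanniae Radix Preparata at 20 µg/mL (replicates 1 to 3). They share the code sets of Paeoniae Radix and Cnidii Rhizoma, in that order. The transcription factor KLF6 had 0.49, BHLHE40 0.90, PPP1R15A 0.70, ALDOC 0.77, KRT19 0.62 and the ribonucleotide reductase subunit RRM2 0.36.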

How the results depend on the processing

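Counts of called genes are given in the order high dose, low dose, double difference, medium dose, Paeoniae Radix 500 against 20 µg/mL and Cnidii Rhizoma 500 against 20 µg/mL. They were 4321, 7, 2528, 714, 1579 and 3934. Adding the Astragali Radix high libraries gave 1885, 1, 722, 85, 303 and 1744. With no filter on low counts the low-dose count was 242, and DESeq2 gave 21. Fitting the 2 groups alone gave 909 for the Paeoniae Radix change. Leaving out 1 library at a time gave 3635 to 3862, 2 to 81, 2121 to 2510, 409 to 662, 928 to 1473 and 3266 to 3495. The cause of these shifts was not tested. Counts with a replicate block were 4509, 10, 2727, 867, 1830 and 4120, and the replicate block moved no count by over 1.5 times. Library totals, RLE factors and DESeq2 kept each high-dose and double-difference count within 1.5 times. The offset between code sets was also taken from the low doses of Angelicae Gigantis Radix (12.8 µg/mL) and Rehmanniae Radix Preparata (20 µg/mL) alone. The double difference of CHAC1 was then -0.009 in place of 0.257. Of 240 single-gene results, 41 lost their call with the Astragali Radix high libraries.

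Each dose group of both extracts had 3 libraries, so genes at a few CPM have wide errors. The double difference has a larger error than the high-dose comparison (median SE 0.11 against 0.08). The offset between code sets is taken as equal at 20 and 500 µg/mL. Leaving out a library did not test whether libraries of a group are independent.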

Other observations

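Of the 7 genes that differed between the extracts at 20 µg/mL, 6 are described. ALDH3A1 and AKR1B10 were lower with Paeoniae Radix at that dose, and LMO4, a LIM-domain transcription regulator, was higher (0.22 ± 0.04, adjusted p = 0.0036 by edgeR's quasi-likelihood test). These 3 also differed at 100 and 500 µg/mL in the same direction. LMO4 was at 119, 123 and 124 CPM with Paeoniae Radix high and at 66.1, 62.8 and 60.3 CPM with Cnidii Rhizoma high, and it fell with dose under both extracts, by 0.29 and 1.00.

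The other 3 genes did not pass both tests. ATP5MG, a subunit of mitochondrial ATP synthase, was at 293, 244 and 287 CPM in the Paeoniae Radix low libraries and at 215, 212 and 219 CPM in the Cnidii Rhizoma low libraries, and its high-dose groups overlapped (0.02 ± 0.06, adjusted p = 0.87). USP34-DT, an antisense transcript, was at 7.00, 3.24 and 5.84 CPM against 2.719, 2.699 and 2.81 CPM at the low dose, with replicate 2 of Paeoniae Radix well below the other 2. GEMIN4, a part of the complex that assembles spliceosomal particles, was lower by -0.20 ± 0.04 at 20 µg/mL and by -0.12 ± 0.04 at 500 µg/mL, and its double difference did not pass (0.07 ± 0.06, adjusted p = 0.45).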
